A study of Mus musculus with 2 samples.

Results

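Protein kinase A, the kinase that cAMP switches on, and the cAMP phosphodiesterases of the PDE8 and PDE4D kind were followed through long-read RNA-seq of the mouse adrenal gland. The 9 genes were taken by name: the regulatory subunits Prkar1a, Prkar1b, Prkar2a and Prkar2b, the catalytic subunits Prkaca and Prkacb, and the phosphodiesterases Pde8a, Pde8b and Pde4d. Every transcript model assigned to one of these symbols was kept, with its exons as the matching model annotation gives them. All 9 were detected, among 16674 genes with a read in either library. They held 103 models with 835 reads in replicate 1, which was 0.103% of that library, and 133 models with 1679 reads in replicate 2, which was 0.286%.

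Adrenal glands came from C57BL/6J mice, untreated as far as the labels say, and form 1 group with 2 libraries called biological replicates and no other genotype. Both replicates carry a description that names wild-type females, whereas the sex field reads not collected and the age is given as unknown. In this assay a cDNA molecule is read along its length, so a read shows which exons were joined, and the level used here, CPM (reads scaled to a common library total), counts molecules without any correction for length. With 2 libraries of 1 group, every test below compares the reads of these libraries and says nothing about a condition. Whether each is 1 animal or a pool is not given in the labels.

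Corticotropin acts on cortex cells through a receptor that raises cAMP. At rest the kinase is a tetramer in which a pair of regulatory subunits holds a pair of catalytic subunits inactive, and cAMP binding to the regulatory subunits releases the catalytic ones, which then phosphorylate the proteins that drive cholesterol delivery and steroid synthesis. Phosphodiesterases break cAMP down and so end the signal. PRKAR1A loss, PRKACA activation and PDE8B variants are known from human adrenal tumours and hyperplasia, and PDE8 enzymes are known to restrain basal steroid output.

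The libraries differed as a whole before any of these genes is considered. Replicate 1 held 810239 reads and replicate 2 held 587861, so a gene without a read can still have had up to 3 reads' worth, 3.70 CPM in replicate 1 and 5.10 CPM in replicate 2. All 8 cortex markers and all 8 medulla markers were read in both libraries, so the defining genes of the labelled tissue were present. Cortex markers took 7.83% and 9.13% of reads and medulla markers 0.625% and 0.859%. Cyp21a1, the steroid 21-hydroxylase, had 31422 and 23856 CPM, and Cyp11b1, the steroid 11-beta-hydroxylase, had 13919 and 31060 CPM. Among the medulla markers Chgb had 2001 and 5076 CPM and Chga 2544 and 2463 CPM. Others of the list moved both ways, with Th at 1210 and 527 CPM, Pnmt at 392 and 81.7 CPM and Dbh at 46.9 and 347 CPM. The zona glomerulosa list, with all 5 genes read in both, took 0.0268% in replicate 1 and 0.107% in replicate 2. By mean level it was led by Dab2 at 123 and 430 CPM and Agtr1a, the angiotensin receptor, at 79.0 and 291 CPM. Its defining gene Cyp11b2, aldosterone synthase, had 19.7 and 325 CPM. Agtr1b had 3.70 and 15.3 CPM, whereas Hsd3b6 of the same list was lower in replicate 2, at 42.0 and 11.9 CPM. Capsule and fibroblast markers were at 0.0296% and 0.0304%, endothelial markers at 0.0212% and 0.0665%, and macrophage markers at 0.112% and 0.0298%. The macrophage list was led by Lyz2, at 896 and 100 CPM. Cd74, at 127 and 45.9 CPM, and Cd68, at 56.8 and 6.80 CPM, were also lower in replicate 2. Csf1r, at 19.7 and 81.7 CPM, and Adgre1, at 17.3 and 62.9 CPM, went the other way. Adipocyte markers were at 0.0139% and 0.00408%, and Schwann and neuron markers at 0.0106% and 0.00204%. Of 4 muscle markers, 1 was read in replicate 1 and 0 in replicate 2. The part of these shifts in the results below was not tested. In whole tissue, fewer cells of a type and less RNA per cell cannot be told apart, nor can cortex and medulla as the source of a read.

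The regulatory subunits share an inhibitor segment that occupies the active site of the catalytic subunit. Its sequence shows how the types differ, so the coding strand over it is given for each gene from GENCODE M21, with the codon at the phosphate-accepting position in capitals.
Prkar1a-201: cgacggcgccgaggtGCTatcagtgctgaa
Prkar1b-201: cgtcgccggcggggcGGTgtgagtgctgaa
Prkar2a-201: tttactagacgagtaTCAgtctgtgcagaa
Prkar2b-202: ttcacaaggcgtgccTCGgtctgtgcagaa
The codon stands at position 99 of the coding sequence in Prkar1a and Prkar1b, 97 in Prkar2a and 112 in Prkar2b. It encodes alanine in Prkar1a and glycine in Prkar1b, so that type I subunits are pseudosubstrates, and serine in both type II genes, so that type II subunits are substrates of the kinase they hold. Over the whole coding sequence Prkar1a and Prkar1b were identical at 74.7% of aligned positions, Prkar2a and Prkar2b at 68.3%, and Prkaca and Prkacb at 80.3%.

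Prkar1a, the main type I subunit (chromosome 11, 109649405 to 109669656, plus strand, mm10), was the most read of the 9 genes in both libraries. It had 504 reads or 622 CPM in replicate 1 and 996 reads or 1694 CPM in replicate 2, which placed it at rank 221 and rank 45 of all genes. Prkar2b, the type II-beta subunit (chromosome 12, 31958476 to 32061296, minus strand), came next with 129 reads (159 CPM) and 316 reads (538 CPM). Prkar1b (chromosome 5, 139017306 to 139150001, minus strand) had 63 reads (77.8 CPM) and 133 reads (226 CPM). Prkar2a (chromosome 9, 108689314 to 108750436, plus strand) had 12 reads (14.8 CPM) and 8 reads (13.6 CPM). The regulatory genes thus fell in the same order in both libraries, with Prkar1a, Prkar2b, Prkar1b and Prkar2a from high to low.

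The catalytic genes did not keep their order. Prkaca, the C-alpha subunit (chromosome 8, 83972993 to 83996443, plus strand), had 50 reads (61.7 CPM) in replicate 1 and 9 reads (15.3 CPM) in replicate 2. Prkacb, the C-beta subunit (chromosome 3, 146729574 to 146812990, minus strand), had 31 reads (38.3 CPM) and 137 reads (233 CPM). Among the phosphodiesterases Pde8b (chromosome 13, 95024454 to 95250336, minus strand) led with 28 reads (34.6 CPM) and 73 reads (124 CPM). Its paralog Pde8a (chromosome 7, 81213596 to 81334533, plus strand) had 14 reads (17.3 CPM) and 6 reads (10.2 CPM). Pde4d, a cAMP-specific enzyme of the rolipram-sensitive family (chromosome 13, 108449948 to 109953461, plus strand), had 4 reads (4.94 CPM) and 1 read (1.70 CPM), which in replicate 2 is under the limit that a count of 0 allows.

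As the mean ± SD of 2 libraries the levels were 1158 ± 758 CPM for Prkar1a, 348 ± 268 for Prkar2b, 152 ± 105 for Prkar1b and 136 ± 138 for Prkacb. They were 79.4 ± 63.4 CPM for Pde8b, 38.5 ± 32.8 for Prkaca, 14.2 ± 0.850 for Prkar2a, 13.7 ± 5.00 for Pde8a and 3.32 ± 2.29 for Pde4d. In this order each neighbour overlapped the next within 1 SD, except Pde8a and Pde4d. Within a library the counting intervals were narrower: Prkar1a stood clear of Prkar2b, and Prkar2b of the gene after it, in both. In replicate 2 Prkar1b was also clear of Pde8b, and Pde8b of Prkaca. Prkaca and Prkacb overlapped in replicate 1, where they were neighbours.

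**Figure D1:**
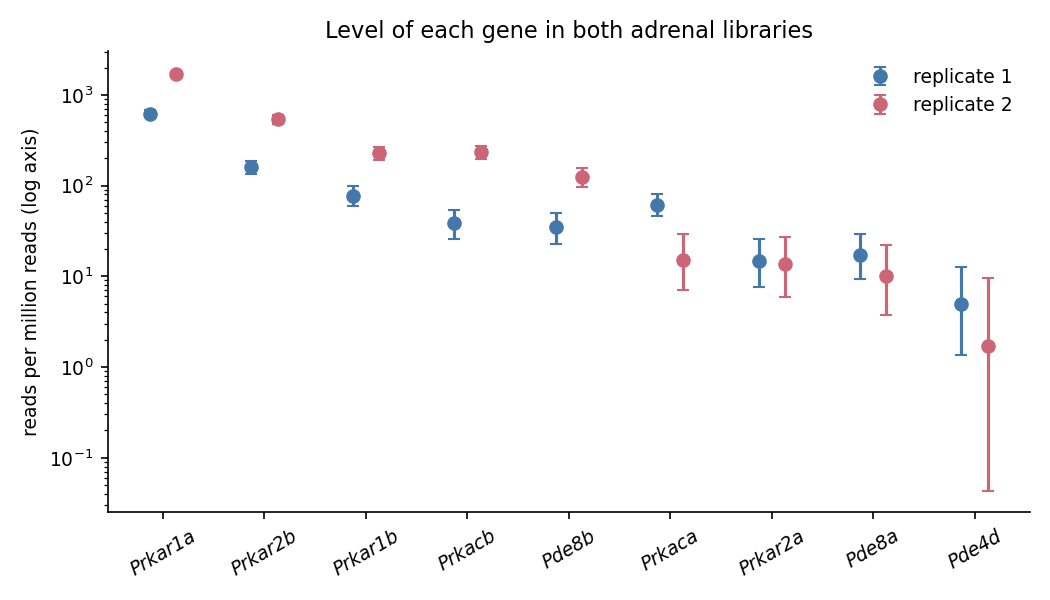
Level in CPM (log axis) of the 9 genes in replicate 1 (blue) and replicate 2 (red), ordered by mean level; bars are 95% Poisson intervals and cover counting error only. Prkar1a lies highest in both libraries, at 622 and 1694, and Prkaca lies lower in replicate 2, at 61.7 against 15.3, as do the less read Prkar2a, Pde8a and Pde4d.

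The test needs 10 reads in the libraries together, which 8 of the 9 genes had, and 6 of those differed between the libraries by the exact two-sided binomial test, 5 higher in replicate 2 and 1 higher in replicate 1. Among all 9809 genes tested 66.2% were called, 30.6% higher in replicate 2 and 35.6% higher in replicate 1, so a call here is no particular property of these genes. Ratios below are between counts scaled by TMM, a normalisation that trims extreme genes, and so differ from ratios of CPM by a constant factor. Prkacb was 4.39-fold higher in replicate 2 (95% interval 2.96 to 6.72), with a log2 ratio of 2.12 (adjusted p = 2.63e-16, exact binomial test). Pde8b had a log2 ratio of 1.36 (adjusted p = 2.19e-05), Prkar2b of 1.28 (3.62e-18), Prkar1b of 1.06 (1.83e-06) and Prkar1a of 0.97 (8.79e-36), all by the same exact test. Prkaca was 5.59-fold higher in replicate 1 (2.72 to 12.9), with a log2 ratio of -2.42 (adjusted p = 9.27e-08, exact binomial test). Prkar2a at -0.56 (adjusted p = 0.447) and Pde8a at -1.17 (adjusted p = 0.108) did not pass that exact test, and Pde4d had too few reads to be tested.

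The ratio between the libraries moved with transcript length over all genes, from strongly negative for short transcripts to positive for those of several kilobases. The most used annotated models of these genes ran from 2276 nt in Prkaca to 4965 nt in Prkar2a. When the trend with length was taken as the expected ratio, 42.4% of 9173 genes were called, 21.3% toward replicate 2 and 21.1% toward replicate 1. Of the 8 genes 6 were again called, now 2 toward replicate 2 and 4 toward replicate 1. Prkaca stayed at -2.31 (adjusted p = 9.04e-07, exact binomial test), and the trend at its length stood at -0.11. Prkacb kept its direction at 0.81 (adjusted p = 0.00830), as did Pde8b at 0.97 (adjusted p = 0.00549), by the same exact test. Prkar1a turned to -0.50 (adjusted p = 3.93e-09), Prkar2b to -0.20 (adjusted p = 0.317), and Prkar1b at 0.34 was no longer called (adjusted p = 0.218, all by the exact test). Pde8a at -2.65 (adjusted p = 2.32e-04) and Prkar2a at -1.71 (adjusted p = 0.0200) became calls toward replicate 1. The adjustment for Pde8b uses the 2474 nt of Pde8b-207, although most of its reads belonged to other models, some of them longer. For Pde8a it uses the 3802 nt of Pde8a-201, which had 2 reads and 1 read, and all its other models were shorter. For Prkar2a it uses the 4965 nt of Prkar2a-201, which had 3 and 4 reads. The calls for Pde8a and Prkar2a thus rest on lengths that most of their reads did not have.

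**Figure D2:**
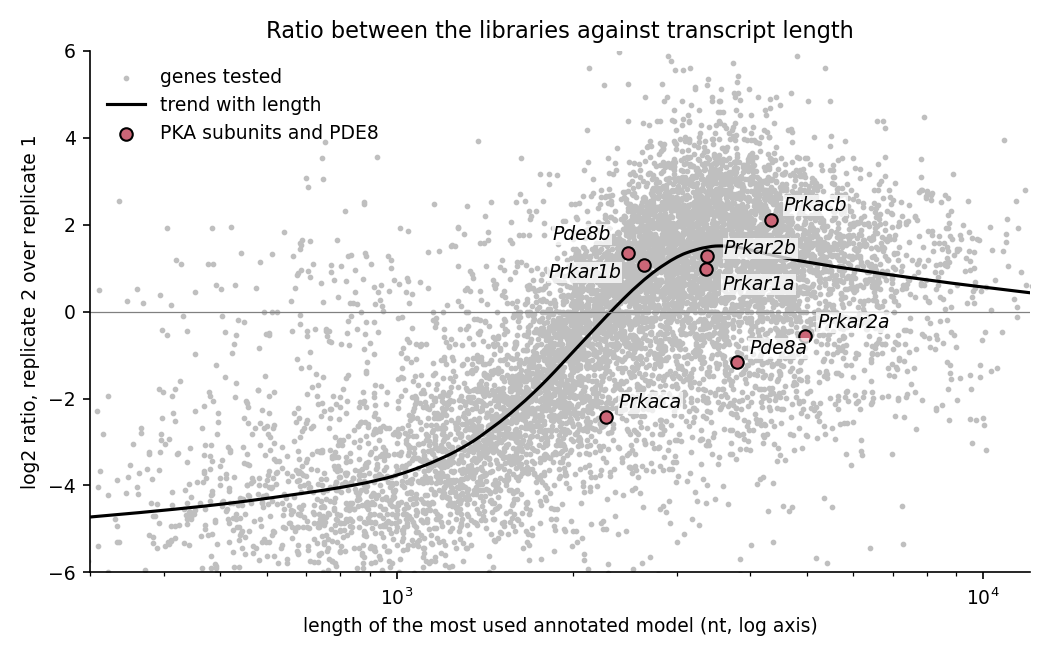
Log2 ratio of replicate 2 over replicate 1 (TMM-scaled) against the length of each gene's most used annotated model (nt, log axis) for the genes tested (grey; those outside the axes are not drawn), with the trend over length (black line) and the 8 tested genes of the set (red). Prkaca lies 2.31 below the line, Prkacb 0.81 and Pde8b 0.97 above it, and Prkar2b 0.20 below it.

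Within each family the make-up of the reads could be compared without scaling the libraries, though shares can still move with transcript length. The trend with length stood at 1.48 for both Prkar1a and Prkar2b, 0.73 for Prkar1b and 1.15 for Prkar2a. The part of length in the shares and ratios below was not tested. Type I subunits made up 80.1% of regulatory reads in replicate 1 (567 of 708, 95% Clopper-Pearson interval 76.9 to 83.0) and 77.7% in replicate 2 (1129 of 1453, 75.5 to 79.8). These intervals overlap. Prkar1a held 88.9% and 88.2% of type I reads, and Prkar2b held 91.5% and 97.5% of type II reads. There were 8.74 regulatory reads per catalytic read in replicate 1 (6.94 to 11.1) and 9.95 in replicate 2 (8.39 to 11.9), which is a ratio of mRNA molecules read and not of protein.

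The catalytic reads were divided differently in the 2 libraries. Prkaca held 61.7% of them in replicate 1 (50 of 81, 50.3 to 72.3) and 6.16% in replicate 2 (9 of 146, 2.86 to 11.4), intervals that lie far apart. The trend with length stood at -0.11 for the 2276 nt of Prkaca-201 and at 1.30 for the 4347 nt of Prkacb-202, beside log2 ratios of -2.42 and 2.12. Among the phosphodiesterase reads Pde8b held 60.9% (28 of 46, 45.4 to 74.9) and 91.3% (73 of 80, 82.8 to 96.4). There the trend with length stood at 0.39 for the 2474 nt of Pde8b-207 and at 1.48 for the 3802 nt of Pde8a-201.

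Prkar1a was read from alternative first exons that can join the same exon, called exon 2 here. In it the coding sequence of Prkar1a-201, Prkar1a-202 and Prkar1a-203 begins. In Prkar1a-203 an inner exon, 109650441 to 109650624, lies between the first exon and exon 2. The first junctions are shown because they tell the leaders apart: the last 15 bases of each first exon are in lower case and the first 15 of exon 2, which opens at 109653779 and holds the start codon ATG, are in capitals.
Prkar1a exon 1 of Prkar1a-204: ttgatcaacatcctgAGAACCATGGCGTCT
Prkar1a exon 1 of Prkar1a-202: cccccaccacacctgAGAACCATGGCGTCT
Prkar1a exon 1 of Prkar1a-201: gccgcccgccctcagAGAACCATGGCGTCT
The exon 1 of Prkar1a-201 ends at 109651073, that of Prkar1a-202 at 109650624 and that of Prkar1a-203 and Prkar1a-204 at 109649527. A change of first exon therefore changes the leader and leaves the annotated start codon in place.

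Prkar1a-201, with 11 exons and 3359 nt, was the leading model at 387 and 706 reads. The second most read model, with 68 and 218 reads, also had 11 exons and ran from 109650575 to 109669656. The authors' tables class it as an incomplete match, since its chain of junctions is the end of that of the 12-exon Prkar1a-203, which had 2 and 7 reads. Its start and first exon, 109650575 to 109650624, are those of the 5-exon Prkar1a-202. Model starts are as deposited, and how read ends were placed on them is not given in the sources used here. A further 7 reads, all in replicate 2, joined exon 1 of Prkar1a-204 to exon 2 in an 11-exon model that is not annotated.

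With incomplete matches left out, as fixed for the test of first junctions, the donor of Prkar1a-201 took 98.0% and 96.5% of complete reads and did not differ (adjusted p = 0.845, Fisher's exact test). No member was called in that test, against 3.36% of 2593 genes. With incomplete matches that begin at an annotated start counted, a choice made after the data were seen, the donor of Prkar1a-201 took 83.6% in replicate 1 (399 of 477, 80.0 to 86.9) and 74.7% in replicate 2 (723 of 968, 71.8 to 77.4). The donor at 109650624 took 14.7% (70 reads) and 23.2% (225 reads), and that at 109649527 had 2 and 14 reads. This difference passed Fisher's exact test (adjusted p = 0.00348), where 5.67% of 3142 genes were called, and Prkar1a was the 1 member called. The 2 main models with these first exons have 3359 and 3256 nt and end at the same site. The part of length in this difference was not tested.

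**Figure D3:**
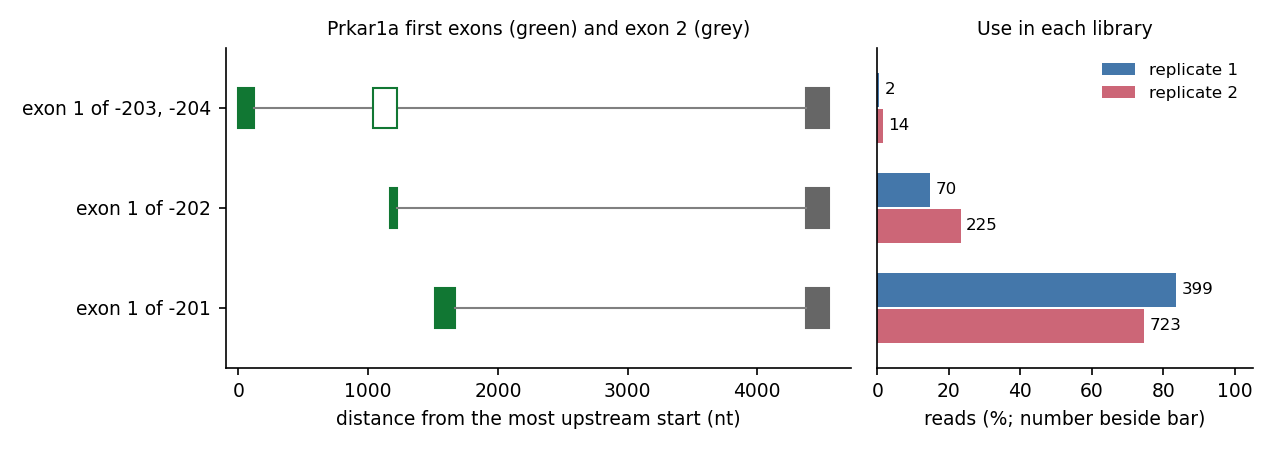
Left, first exons of Prkar1a (green) and the shared exon 2 (grey) drawn to scale as distance from the most upstream annotated start (nt), with the inner exon of Prkar1a-203 as an open box. Right, percent of reads that are complete or begin at an annotated start, by library (blue, replicate 1; red, replicate 2), with the number of reads: the exon 1 of Prkar1a-201 took 83.6% and 74.7%, that of Prkar1a-202 14.7% and 23.2%.

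The DNA upstream of these starts is shown because the 2 most used first exons lie close together and the windows upstream of them differ in a cAMP-related motif. Of the reads with the exon 1 of Prkar1a-202, 68 of 70 and 218 of 225 belong to the model classed as incomplete. Its start is thus not shown to be a start of transcription with a promoter of its own. The windows come from the RefSeq promoter table (GRCm38.p6), each cut where an annotated exon of the gene begins. Capitals mark TGACG on either strand, the core of the cAMP response element, whose full palindrome is TGACGTCA and contains the core once on each strand.
Prkar1a upstream start, chr11:109650292-109650440, plus strand: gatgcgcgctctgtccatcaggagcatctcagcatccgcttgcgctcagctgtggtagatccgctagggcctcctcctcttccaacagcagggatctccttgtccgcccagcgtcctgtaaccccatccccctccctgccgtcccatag
Prkar1a downstream start, chr11:109650699-109650920, plus strand: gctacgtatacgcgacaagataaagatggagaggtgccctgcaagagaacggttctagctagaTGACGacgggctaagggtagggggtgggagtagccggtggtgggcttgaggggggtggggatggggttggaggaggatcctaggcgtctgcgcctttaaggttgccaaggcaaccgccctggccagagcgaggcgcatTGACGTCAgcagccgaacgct
The palindrome stands at 109650900 to 109650907, its last base 14 nt upstream of the start of Prkar1a-201, and 1 further TGACG lies upstream of it. The 250 bases upstream of the RefSeq start nearest to Prkar1a-202 hold neither. Those upstream of the RefSeq start at 109649363, near the start of Prkar1a-203 at 109649405, hold the core without the palindrome. Of 32817 RefSeq windows of 250 bases upstream of a start, 1.55% held TGACGTCA and 17.7% held TGACG on either strand. All 9 genes had such windows, 26 in all, of which 1 held the palindrome and 7 the core. A match is a string of letters and was not tested as a site of binding.

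Prkar2b differed between the libraries at its last exon. Prkar2b-202, with 11 exons and 3378 nt, had 86 reads in replicate 1 and 285 in replicate 2. Prkar2b-201, in which a further intron is removed downstream of the stop codon so that 1657 nt remain, had 9 reads and 1 read. Both encode the same number of codons, with a coding sequence of 1251 nt, and keep 1913 nt and 253 nt after it. The last acceptor of Prkar2b-202, at 31960522, took 91.1% of complete reads in replicate 1 (92 of 101, 83.8 to 95.8) and 99.0% in replicate 2 (297 of 300, 97.1 to 99.8; adjusted p = 0.00486, Fisher's exact test). It was the 1 of 3 tested members called, against 9.91% of 2180 genes. The models differ in length, 3378 against 1657 nt, and the part of length in this difference was not tested.

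In the test of the most used model 2 of 5 members were called, against 28.7% of 4733 genes. Prkar2b-202 took 66.7% of Prkar2b reads in replicate 1 and 90.2% in replicate 2 (adjusted p = 2.67e-07, Fisher's exact test). In Pde8b the most used entry was the pool of unspliced models, with 13 of 28 reads against 4 of 73 (adjusted p = 6.60e-05, Fisher's exact test). Prkar1a-201 at 76.8% and 70.9% (adjusted p = 0.0560), Prkar1b-201 at 77.8% and 87.2% (adjusted p = 0.218) and Prkacb-202 at 64.5% and 76.6% (adjusted p = 0.336) did not pass Fisher's exact test.

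Prkacb joins several first exons, each with its own start codon, to a common exon 2 at 146757768, which gives the C-beta variants different amino ends. The first junctions are shown in the same way, exon 2 in capitals.
Prkacb-202: gcgaagtggagagcgTGAAAGAGTTTCTAG
Prkacb-201: catgggacaaatcaaTGAAAGAGTTTCTAG
Prkacb-203: ctgtcatcatgaatgTGAAAGAGTTTCTAG
Prkacb-204: ccaacatgggcttgtTGAAAGAGTTTCTAG
The exon 1 of Prkacb-202 carries 46 coding nt, that of Prkacb-201 187, that of Prkacb-203 7 and that of Prkacb-204 10. The junction of Prkacb-202 took 20 of 24 complete reads in replicate 1 (83.3%, 62.6 to 95.3) and 112 of 124 in replicate 2 (90.3%, 83.7 to 94.9; adjusted p = 0.962, Fisher's exact test). Prkacb-203 had 1 and 7 reads from its first exon, Prkacb-201 had 1 and 3, and Prkacb-204 had 1 and 1. All 4 first exons were thus read in both libraries, and at this depth their shares could not be told apart between them. Prkaca by contrast was read from the first exon of Prkaca-201 in 45 of 46 complete reads of replicate 1 and 7 of 7 of replicate 2, and its second annotated coding model, Prkaca-202, was not read.

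Prkar1b was read mainly as Prkar1b-201, with 49 of 63 and 116 of 133 reads. An unannotated model with the first exon of Prkar1b-204 on the same later exons was read in both libraries, with 1 and 2 reads. A further 10-exon model that begins at the start of Prkar1b-210 had 1 and 6 reads. Prkar2a was thinly read and mostly not as a full transcript: unspliced reads made up 8 of its 12 in replicate 1 and 1 of its 8 in replicate 2, and Prkar2a-201 had 3 and 4 reads. These unspliced reads lay between 108746994 and 108749935, near the 3′ end of the gene.

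Little of Pde8b matched an annotated transcript. Annotated models held 2 of 28 reads (7.14%) in replicate 1 and 9 of 73 (12.3%) in replicate 2. Known splice sites in a combination that is not annotated made up 14.3% and 39.7%, incomplete matches 25.0% and 34.2%, and genomic reads, mostly unspliced, 42.9% and 4.11%. Over all annotated genes the annotated class held 78.7% and 74.1% of reads and the new combinations 3.05% and 6.72%.

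One source of the new Pde8b combinations is a pair of acceptors of exon 2 that lie 3 nt apart, at 95123320 and 95123323. The annotated models tie the first to the distal first exon (Pde8b-207, donor 95250134) and the second to the proximal first exon (Pde8b-201, donor 95222475). The 4 possible junctions are shown with the 3 added bases in capitals.
Pde8b distal with the shorter exon 2: cagagcgtgcgccaggtgtcttctgca
Pde8b distal with the longer exon 2: cagagcgtgcgccagCAGgtgtcttctgca
Pde8b proximal with the shorter exon 2: tacaccagcgtcaaggtgtcttctgca
Pde8b proximal with the longer exon 2: tacaccagcgtcaagCAGgtgtcttctgca
The added bases form 1 codon, so either form keeps the reading frame. Over both libraries the distal first exon was joined to the shorter exon 2 in 12 reads and to the longer in 11, and the proximal first exon to the shorter in 9 and to the longer in 10. Both first exons were thus joined to both forms, whereas only 11 of these reads belonged to annotated models, 9 distal and 2 proximal. By library, the distal junctions had 2 and 1 reads in replicate 1 and 10 and 10 in replicate 2, and the proximal junctions had 1 and 3 reads and 8 and 7.

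The distal and proximal first exons give Pde8b different amino ends, with 27 coding nt in exon 1 of Pde8b-207 and 339 in that of Pde8b-201. Complete reads used the distal donor 3 times in replicate 1 and 25 times in replicate 2, and the proximal donor 3 and 15 times, of 9 and 45 complete reads. An exon that opens near 95059109, far downstream of both, served as first exon with an unannotated donor at 95059073 in 2 reads of replicate 1 and 1 of replicate 2, in a 13-exon model. The nearest annotated donor is 6185 nt away. The most read complete unannotated models all had 22 exons. One with the distal first exon and the longer exon 2 had 0 and 7 reads, one with the proximal first exon and the shorter exon 2 had 0 and 6, and one with the proximal first exon and the longer exon 2, which ends at 95026103, had 1 and 5.

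Pde8b has 3 neighbouring exons that are optional in the annotation. They are called A (95083114 to 95083174, 61 nt), B (95085173 to 95085261, 89 nt) and C (95086728 to 95086868, 141 nt) here. Reads were counted where they hold the exons on either side, which end at 95052930 and begin at 95090278. All 4 such reads of replicate 1 held A, B and C, and 1 further read of that library, with 18 exons, lacked them together with the exon at 95090278. In replicate 2 they were all present in 39 of 57 reads and all absent in 11, and 5 reads held A and B without C and 2 held C alone. Exons A and B were not separated in any of the 4 and 57 spanning reads. Together A and B add 150 nt or 50 codons, and C adds 47 codons, so each unit keeps the frame. Exon C was present in 71.9% of replicate 2 reads (58.5 to 83.0) and A and B in 77.2% (64.2 to 87.3). With 4 spanning reads, replicate 1 allows an inclusion as low as 39.8%, so a difference was not detectable at this depth.

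**Figure D4:**
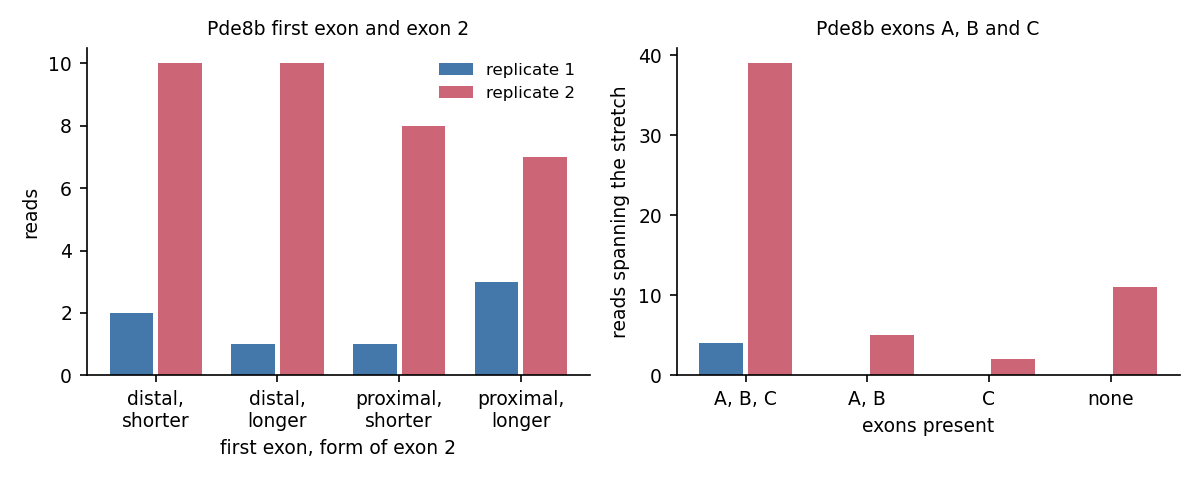
Left, reads of Pde8b that join the distal or proximal first exon to the shorter or longer form of exon 2; right, reads that span the optional stretch, by the exons they hold (blue, replicate 1; red, replicate 2). In replicate 2 all 4 junctions had 7 to 10 reads, and 39 of 57 spanning reads held exons A, B and C.

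Pde8a and Pde4d were hardly read as whole transcripts. Pde8a-201, with 22 exons and 3802 nt, had 2 reads and 1 read. Of the 14 reads of replicate 1, 11 were incomplete matches, and 8 of those began at the annotated start and stopped short of the 3′ end. In replicate 2 none of its 6 reads was an incomplete match of that kind. In each library 1 read of known splice sites in a new combination also began at the annotated start and stopped short. These reads ended at 81302292 in replicate 1 and at 81311561 in replicate 2. Pde4d, whose gene spans over a megabase, had no read on an annotated model in either library: its 4 reads in replicate 1 were 2 incomplete matches with 14 and 13 exons and 2 genomic reads, and the 1 read of replicate 2 was genomic.

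Over the 9 genes together annotated models held 72.7% of reads in replicate 1 (607 of 835, 69.5 to 75.7) and 74.6% in replicate 2 (1252 of 1679, 72.4 to 76.6). Incomplete matches held 16.5% and 18.5%, above the 10.5% and 10.8% of all annotated genes. Prkar1a gave 92 of 138 and 247 of 311 of them, of which its model that begins at 109650575 had 68 and 218. Genomic reads fell on 7.07% and 0.893%, against 5.14% and 3.11% over all annotated genes. Prkaca, Prkacb, Prkar1b and Prkar2b were read mainly as annotated models, at 88.0%, 74.2%, 77.8% and 73.6% in replicate 1 and 77.8%, 84.7%, 87.2% and 90.5% in replicate 2.

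**Figure D5:**
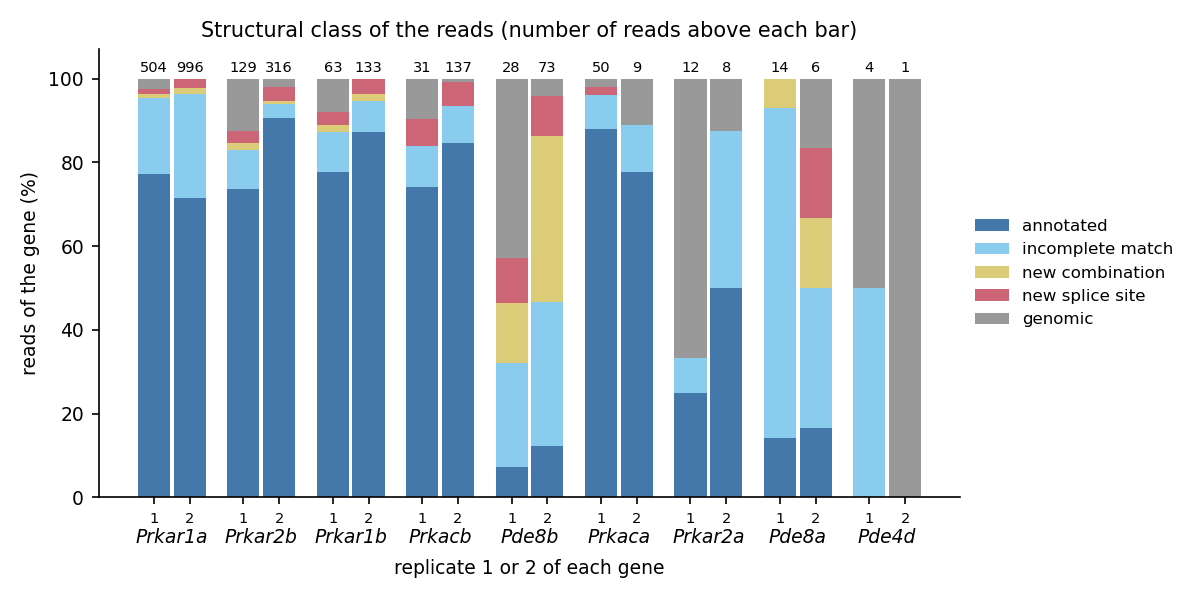
Percent of each gene's reads by structural class in replicates 1 and 2 (number of reads above each bar), genes ordered by mean level. Annotated models make up most reads of Prkar1a, Prkar2b, Prkar1b, Prkacb and Prkaca and 7.14% and 12.3% of those of Pde8b, where new combinations reach 39.7% in replicate 2.

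The 9 genes held 82 unannotated spliced chains of junctions, of which 61 rested on 1 read and 8 were read in both libraries. Of these 8, Prkar1a had 3, Prkar1b 2, Pde8b 2 and Prkar2b 1, with at most 6 reads each. Their splice sites included 65 that are not annotated, 22 of them within 10 nt of an annotated site of the same kind, 8 at exactly 4 nt, and 8 read in both libraries. In Prkar1a an acceptor at 109653781, 2 nt into exon 2, had 4 reads in each library, and the bases it skips are the AG that opens exon 2 in the junctions above. A Prkar1a donor at 109651443, 370 nt beyond that of Prkar1a-201, had 2 reads and 1 read and lengthens the leader. The third Prkar1a chain read in both, with 1 read in each, begins with the exon 1 of Prkar1a-202 and uses an unannotated donor at 109666729, 4 nt from the annotated one, before the last exon. In Prkar1b a donor at 139127583, 4 nt from the annotated one, had 2 and 2 reads, and in Prkar2b an acceptor at 31972201, 2 nt from the annotated one, had 1 and 2. The unannotated models of Prkar1a ended at different sites in the libraries, 7 of 9 at 109667792 in replicate 1 and 18 of 23 at 109669656 in replicate 2, with median lengths of 1493 and 3260 nt.

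The rest of the cAMP pathway was followed through lists of its other genes, with the same exact binomial test over all genes, of which 30.6% were called toward replicate 2 and 35.6% toward replicate 1, with a median log2 ratio of -0.01. Of the adenylyl cyclases and G alpha subunits that control them, 8 of 15 could be tested, 3 of them toward replicate 2 and 2 toward replicate 1, and the median was 0.77. Gnai3, an inhibitory G alpha subunit, had 135 and 1255 CPM, Gnas, the stimulatory one, had 715 and 480 CPM, and Gnai1 had 40.7 and 73.1 CPM. Gnai3 was called toward replicate 2 (log2 ratio 2.75) and Gnas toward replicate 1 (-1.04), and Gnas turned to 0.80 once the trend with length was removed.

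Of 13 other cAMP phosphodiesterases 4 could be tested and 1 was higher in replicate 2, with a median of 0.95. That was Pde2a, a cGMP-stimulated enzyme, at 65.4 and 333 CPM, well above Pde7a at 19.7 and 45.9 CPM and Pde10a at 6.17 and 20.4 CPM. By reads Pde2a, at 199 ± 190 CPM, and Pde8b, at 79.4 ± 63.4 CPM, were thus the leading cAMP phosphodiesterases measured. Their levels overlap within the spread of the 2 libraries. Pde2a had no read on an annotated model, so it has no length here and is not among the genes with the trend removed. Of PKA inhibitors and other cAMP effectors 5 of 10 were tested, 4 higher in replicate 2 and 1 higher in replicate 1, with a median of 2.71. Rapgef4, the cAMP-activated exchange factor Epac2, had 111 and 788 CPM, and its relative Rapgef3 had 3.70 and 71.4 CPM. Pkig, a PKA inhibitor with a transcript of 1036 nt, had 106 and 11.9 CPM, a log2 ratio of -3.54 that became 0.16 once the trend with length was removed.

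The A-kinase anchoring proteins are a class named for tethering the regulatory subunits, and whether each gene listed does so was not examined. Of these 15 of 26 were tested, with 7 higher in replicate 2, 1 higher in replicate 1 and a median of 1.28. The most read were Akap8l at 61.7 and 209 CPM, Msn at 104 and 162 CPM and Akap8 at 29.6 and 160 CPM. The list of transcription factors and coactivators that answer to cAMP also holds the kinases Sik1, Sik2 and Sik3. Of its 11 genes 9 were tested, 1 higher in replicate 2 and 2 higher in replicate 1, with a median of -0.71. Sik3, at 32.1 and 1.70 CPM, was 1 of the 2 higher in replicate 1. Crem had 146 and 45.9 CPM and a log2 ratio of -2.12, which turned to 1.72 (adjusted p = 5.32e-06, exact binomial test) once the trend with length was removed. Atf1 had 18.5 and 80.0 CPM and Crebbp 18.5 and 15.3 CPM. With the trend with length removed the medians of the lists, in the order given, became -0.23, 0.11, 1.35, 1.09 and 1.48, against 0.06 for all genes. The calls toward replicate 2 and replicate 1 then became 2 and 2 of 7 tested for the cyclases and G alpha subunits, 0 and 0 of 2 for the phosphodiesterases and 2 and 0 of 5 for the inhibitors and effectors. They were 5 and 3 of 13 for the anchoring proteins and 3 and 1 of 5 for the list with the transcription factors. Sik2, with 3 and 7 reads, was 1 of the 3 in that last list. All genes had 21.3% and 21.1%.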

How the data were processed

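Per the file headers, the authors deposited for each library the raw counts of reads on every transcript model, in mm10 coordinates and with GENCODE M21 annotation. The sample notes name TALON for the models. Aligner, platform and versions: not given in the sources used here. The genes, lists and tests were chosen with earlier results of these data known.

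A gene's count is the sum over its models. Replicate 2 was compared with replicate 1 over 9809 genes with at least 10 reads by the exact two-sided binomial test, with TMM sizes (edgeR 4.0.16), a pseudocount of 0.5 reads for log2 ratios and Benjamini-Hochberg adjustment at 0.05. A lowess curve (span 0.3, genes with at least 20 reads) gave the trend with length, that of the annotated model most read. Model, first-junction and last-junction use were compared by Fisher's exact test where both libraries had at least 10 reads, with spliced models matched by their junctions. Incomplete matches were left out of the junction tests. Intervals (95%) are Clopper-Pearson for shares and Poisson for counts, and cover counting error only. The tests were run on simulated reads (scipy 1.17.1) with set changes and counting error, and the gene test also with a trend with length. Other variation between libraries was not simulated, so false calls from it were not checked. Replicates come from different biosamples. The p-values rest on the counting error of reads in 2 libraries and hold no estimate of the spread between animals or libraries.

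Named are all 9 genes, the 3 most read genes of each other pathway list and the 2 most read of each marker list. The latter are printed for cortex, zona glomerulosa, medulla and macrophages, and the other marker lists as totals. Models with at least 10 reads and unannotated chains read in both libraries are named too. Cyp11b2, Agtr1b, Hsd3b6, Th, Pnmt, Dbh, Cd68, Csf1r, Adgre1, Sik2, Sik3 and other models named were chosen after their values were seen. Alternatives were other scalings (DESeq2 1.42.0 size factors, total reads), read minimums, subsets of models, a pseudocount of 1 read and the removal of the trend with length.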

Additional observations from a re-analysis of the deposited data

Results flagged for a closer look

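Reads on the strand opposite to the genes belong to none of the comparisons above. Above the 3 reads that a count of 0 allows there were 22 such reads over Prkar1a in replicate 1 and 5 in replicate 2, and 25 and 14 over Pde8b. In replicate 1 alone there were 16 over Prkaca, 13 over Pde8a, 6 over Prkar1b and 5 over Prkar2a. Not all of these were classed as antisense. That class held all of those over Prkar1a, Prkaca and Prkar2a, but 19 and 7 over Pde8b, and 2 over Pde8a and 2 over Prkar1b in replicate 1. Whether the libraries keep the strand is not given in the sources used here, so opposite-strand reads and reads of the genes themselves cannot be told apart with certainty.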

How the results depend on the processing

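Genes called, 6497 of 9809 tested, became 4037 of 4705 with at least 50 reads and 3889 of 9173 with the trend in length removed. With total reads in place of TMM the share of called genes that were higher in replicate 2 moved from 46.2% to 56.8% and the median log2 ratio of all genes shifted to 0.46, and no member was reversed. The log2 ratio reversed to 0.45 for Prkar2a with spliced models only, and to -0.20 for Prkar2b and -0.50 for Prkar1a with the trend removed. With spliced models only Pde8a was called at -1.59 (adjusted p = 0.0430, exact test), and Pde8b with annotated models only was not, at 1.87 (adjusted p = 0.0827, exact test). With models of at least 2 reads the annotated share of member reads, 73.6%, became 78.4% and the incomplete share, 17.5%, became 15.6%, and with spliced models only the annotated share was 77.0%. Genes whose most used model differed went from 1359 (28.7% of those tested) to 772 (19.6%) without incomplete matches. The share of Prkar1a-201 passed Fisher's exact test with at least 20 reads in each library (adjusted p = 0.0468) or models of at least 2 reads (adjusted p = 0.0451). Of all genes tested 35.6% and 30.4% were called in these settings. Genes called at the first junction, 87 (3.36% of those tested), became 53 (5.44%) with annotated models only and 437 (11.3%) with incomplete matches. With only the incomplete matches that begin at an annotated start added they became 178 (5.67%). The members called went from 0 of 4 to 1 of 5 in both settings with incomplete matches. At the last junction 216 genes (9.91% of those tested) became 652 (19.2%) with incomplete matches. Members called there went from 1 of 3 to 3 of 5, with Prkacb (adjusted p = 0.0284) and Pde8b (adjusted p = 0.0212) added by Fisher's exact test. The cause of these moves was not tested. Other counts stayed within 1.5 times, though some moved. Members called ranged from 5 (annotated models only, with 5662 of 7364 genes called) to 7 (spliced models only, with 6210 of 8761) against 6. Members with another use of their most used model ranged from 2 to 3, and pathway list genes called from 18 (trend removed) to 29 (total reads) against 22. With annotated models only the mean level fell from 79.4 to 8.89 CPM for Pde8b, from 13.7 to 2.08 for Pde8a, from 14.2 to 5.25 for Prkar2a (8.42 with spliced models only) and from 3.32 to 0 for Pde4d. Without replicate 1 or replicate 2 a share is that of the other library: 77.7% to 80.1% for type I, 6.16% to 61.7% for Prkaca, 60.9% to 91.3% for Pde8b, 72.7% to 74.6% for annotated and 16.5% to 18.5% for incomplete reads. Depth limits Prkar2a, Pde8a and Pde4d, whose structures rest on 20 reads or fewer. No paired analysis was possible because there is 1 group.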
